A study of Caenorhabditis elegans with 2 samples.

Results

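The tRNA genes on the autosomes of Caenorhabditis elegans were examined for the places where anti-GFP ChIP signal of tagged SDZ-38 was concentrated. The members were all nuclear genes that the RefSeq annotation of WBcel235 classes as tRNA and that do not lie on X, 336 of 612 nuclear tRNA genes (54.9%). Chromosome I carried 66 of them, II carried 57, III carried 64, IV carried 71 and V carried 78. The annotation named 21 isotypes among them, the amino acid that the tRNA carries, and gave none for DY3.t2 and C08E8.t3. Their median length was 72 bp (68 to 122 bp), 17 had an intron, and the median distance to the next tRNA gene was 9003 bp. Chromatin came from whole young adult hermaphrodites of the strain OP543, taken 64 hours after synchronization as starved L1 larvae, in 2 biological replicates of 1 group. All animals carried a stable transgene for SDZ-38 with GFP and FLAG at its C terminus. The description names an anti-GFP antibody, whereas the antibody field reads sdz-38, and animals without the tag were not analysed here. Signal from all tissues is mixed, so binding in few cells and weak binding in many cannot be told apart. The name sdz refers to zygotic transcripts that depend on the factor SKN-1.

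tRNA genes are transcribed by RNA polymerase III from promoter elements that lie inside the transcribed sequence. These elements, the A box and the B box, are recognised by the factor TFIIIC, which places TFIIIB just upstream of the gene and so brings in the polymerase. A short run of T after the gene ends transcription. The C. elegans genome holds many identical copies of most tRNA genes, some alone, some in small groups and many inside introns of protein-coding genes.

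The sequences below are the 3 tRNA-Ala genes with a summit in the optimal list, the shortest of the authors' lists, the autosomal copies identical to the first of them, which had weak regions or none, and a near-identical pseudogene that was in the optimal list. They were chosen after their values were seen, and they are shown because genes of the same letters can be compared at different places in the genome. Each is printed 5′ to 3′ on the strand of the gene as 72 bases of gene followed by 25 bases, from RefSeq WBcel235 (ce11). Capitals mark the core of the B box, searched as GTTCNANNC, and the first run of TTTT or longer after the gene. Y38E10A.t1 lies at chrII:12678314-12678385 on the plus strand, between protein-coding genes. B0491.t2 at chrII:11334013-11334084 (minus), B0491.t1 at chrII:11334508-11334579 (plus), Y37A1B.t1 at chrIV:14013805-14013876 (minus) and Y105C5A.t2 at chrIV:15604312-15604383 (minus) hold the same 72 bases. K06A4.t1 lies at chrV:9503562-9503633 (plus) within swt-5, a gene of the SWEET sugar transporter family, and F44A2.t1 at chrV:9318202-9318273 (plus) between protein-coding genes. C52E12.t1, at chrII:7001627-7001698 (plus), is annotated as a tRNA pseudogene and lies within unc-104, which encodes a kinesin.
Y38E10A.t1: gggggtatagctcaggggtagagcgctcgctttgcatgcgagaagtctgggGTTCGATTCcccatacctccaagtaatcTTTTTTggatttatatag
B0491.t2: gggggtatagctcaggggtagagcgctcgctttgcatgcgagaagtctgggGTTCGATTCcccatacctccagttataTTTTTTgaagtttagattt
B0491.t1: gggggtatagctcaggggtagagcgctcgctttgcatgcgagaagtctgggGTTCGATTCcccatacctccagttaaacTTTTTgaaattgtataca
Y37A1B.t1: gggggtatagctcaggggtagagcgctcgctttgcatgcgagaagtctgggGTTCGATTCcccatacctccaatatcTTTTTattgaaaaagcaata
Y105C5A.t2: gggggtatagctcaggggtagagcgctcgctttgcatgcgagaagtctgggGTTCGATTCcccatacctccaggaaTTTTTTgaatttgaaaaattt
K06A4.t1: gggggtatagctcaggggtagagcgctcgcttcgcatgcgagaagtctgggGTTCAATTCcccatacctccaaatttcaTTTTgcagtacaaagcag
F44A2.t1: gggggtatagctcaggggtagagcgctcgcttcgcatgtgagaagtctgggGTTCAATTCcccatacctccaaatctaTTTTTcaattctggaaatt
C52E12.t1: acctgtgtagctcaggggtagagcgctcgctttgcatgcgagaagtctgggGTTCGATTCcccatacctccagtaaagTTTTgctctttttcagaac
Counted from 1 at the 5′ end of the gene and against Y38E10A.t1, K06A4.t1 differed by T33C and G56A (97.2% identity). F44A2.t1 differed by T33C, C39T and G56A (95.8% identity). C52E12.t1 differed by G1A, G2C, G3C, G4T and A7G (93.1% identity). The B box core began at position 52 in all 8.

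Each row of the authors' lists is a region with a summit, the position of its highest signal, and a signal value whose scale is not stated. The signal value was used to rank and describe regions within a list, from rank 1 for the strongest, with mitochondrial regions included, and its size was not compared between lists. The pooled list, made from both replicates together, held 1242 regions, of which 748 were autosomal, 473 on X and 21 mitochondrial. Replicate 1 had 17743 regions (12960 autosomal) and replicate 2 had 12648 (9194 autosomal). These lenient lists hold peaks and background alike, and both replicates share 1 control alignment. The optimal list, which keeps regions whose ranks repeat between replicates, held 102, of which 47 were autosomal. Median region widths were 456 to 484 bp. The sequencing depth is unknown, so the precision below rests on the number of genes or regions alone.

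A summit lay within 250 bp of an autosomal tRNA gene far more often than within an equal stretch of the autosomes. In the pooled list 64 of the 336 genes had one (19%, exact Clopper-Pearson 95% interval 15.0% to 23.7%). Of 144322 windows of 572 bp, the reach of a gene of median length, that tile the autosomes, 0.513% held a pooled summit, and the ratio of the shares was 37.1. In replicate 1 a summit lay beside 149 genes (44.3%, 39.0% to 49.8%) against 8.51% of windows. In replicate 2 it lay beside 133 genes (39.6%, 34.3% to 45.0%) against 6.12% of windows. The shares of genes were thus 5.21 and 6.47 times those of windows in these long lists. Summits of both replicates lay beside 88 genes (26.2%, 21.6% to 31.2%) against 1.77% of windows, a ratio of 14.8. The optimal list had a summit beside 6 genes (1.79%, 0.658% to 3.85%) against 0.0326% of windows. Beside 141 genes no summit was present in any of the pooled and replicate lists. All intervals cover counting error only, no test of these differences was made, and neighbouring genes can share a region. In the stronger part of the pooled list, above its median signal value, 38 genes had a summit. No share of windows is given for that part.

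**Figure D1:**
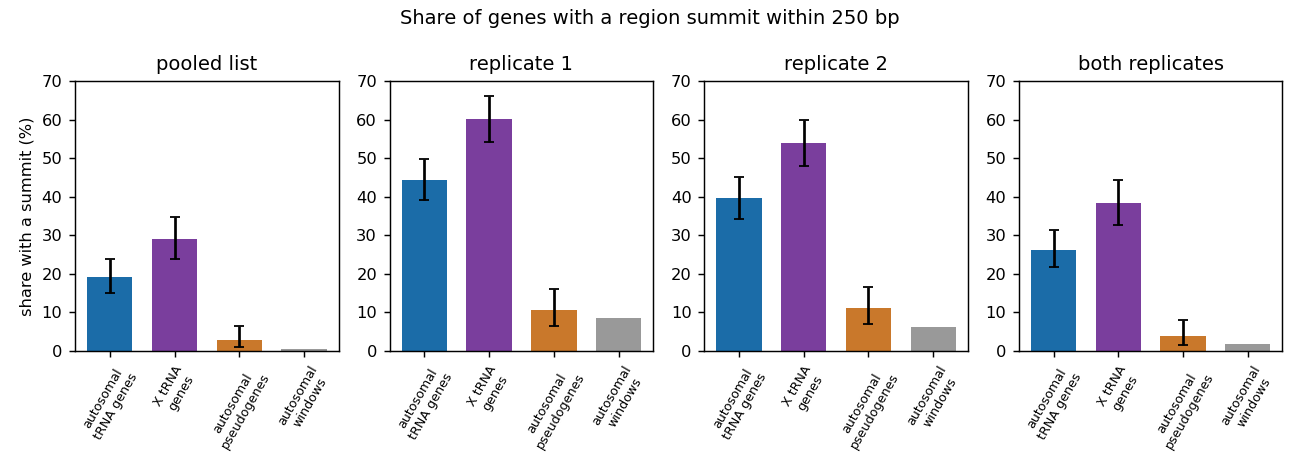
Share of genes with a region summit within 250 bp (%, y axis) for autosomal tRNA genes (n = 336), tRNA genes on X (n = 276), autosomal tRNA pseudogenes (n = 180) and autosomal windows of 572 bp, in the pooled list, each replicate and both replicates; bars are shares and error bars exact 95% intervals, with none drawn for windows. In the pooled list autosomal tRNA genes reach 19%, X tRNA genes 29.0%, pseudogenes 2.78% and windows 0.513%.

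The pooled summits were concentrated at the genes and close beside them. Taking the strongest region of each of the 64 genes, the pooled summit lay inside 24 genes, upstream of 20 and downstream of 20. Its median distance from the gene was 13.5 bp, and 53 of the 64 summits were within 100 bp. Measured from the 5′ end along the gene's strand, the median offset was 33 bp (quartiles -17.5 and 80 bp). Only summits within 250 bp on either side of a gene entered, so any even scatter around it would put this median inside. In the profile around the 5′ ends, a summit was counted once for every gene it lay near. The pooled list had 31 such counts in the first 100 bp from the 5′ end, 9.23 per 100 genes. It had 15 in the 100 bp before the 5′ end, 4.46 per 100 genes. No pooled summit fell in the bin that begins 300 bp after the 5′ end or in those that begin 400 and 500 bp before it. The replicates placed their summits less tightly. In replicate 1 the summit lay inside 39 genes of 149 at a median distance of 40 bp, and in replicate 2 inside 40 genes of 133 at 35 bp. The bin at the 5′ end nevertheless held the most summits in both, 14.9 per 100 genes in replicate 1 and 15.2 in replicate 2. The same bin held 2.22 and 2.78 summits per 100 pseudogenes.

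**Figure D2:**
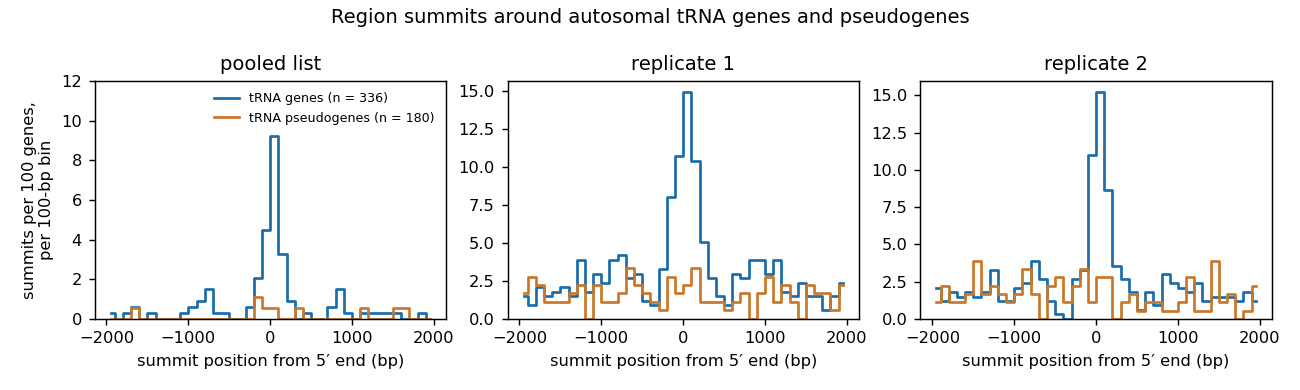
Region summits per 100 genes in bins of 100 bp (y axis) by position from the 5′ end along the strand (x axis, bp) for 336 autosomal tRNA genes and 180 autosomal tRNA pseudogenes, in the pooled list and each replicate. All 3 lists peak in the first 100 bp of tRNA genes, at 9.23, 14.9 and 15.2 summits per 100 genes, and the y axes differ between panels.

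Regions beside tRNA genes made up a larger share of the strong autosomal regions than of the weak ones. In the pooled list 60 of 748 autosomal regions (8.02%) had their summit within 250 bp of a member, 9 of them beside 2 genes. The share was 14% among the first 100 autosomal regions (7.87% to 22.4%), 7.50% in ranks 101 to 500 and 6.45% in ranks 501 to 748. In replicate 1 it was 8.00% in the first 100, 5.50% in ranks 101 to 500, 2.00% in ranks 501 to 1000, 1.57% in ranks 1001 to 5000 and 0.666% after that. In replicate 2 the same classes held 12%, 6.25%, 2.00%, 1.60% and 0.644%. Bases within 250 bp of a member were 183217 of 82553665 autosomal bases, or 0.222%, and every class exceeded that share. The intervals of the first and the last class overlapped for the pooled list and did not for the replicates. The median signal value of regions beside members was 47.1 in the pooled list, against 43.6 for all autosomal regions. The medians were 18.9 against 16.4 in replicate 1 and 18.3 against 15.4 in replicate 2. For the 6 regions beside members in the optimal list the median was lower, 66.6 against 70.6. Over the genes, the signal value of the strongest region ran from 39.1 through a median of 46.5 to 82.2 in the pooled list. It ran from 13.4 through 19.4 to 39.7 in replicate 1 and from 13.0 through 18.9 to 41.5 in replicate 2. The median rank of a member's strongest region was 443.5 of 1242 in the pooled list, 4496 of 17743 in replicate 1 and 2536 of 12648 in replicate 2, so most such regions were far from the top of their list.

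**Figure D3:**
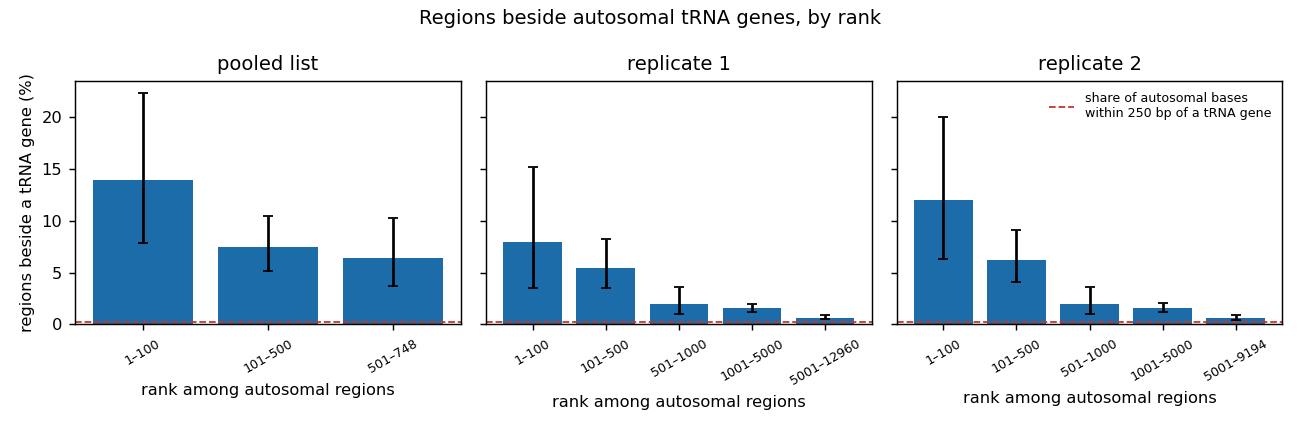
Share of autosomal regions whose summit lay within 250 bp of a tRNA gene (%, y axis) by rank among autosomal regions (x axis, 1 = strongest), in the pooled list and each replicate; bars are shares, error bars exact 95% intervals, and the dashed line is the share of autosomal bases within that distance, 0.222%. The first 100 regions hold 14%, 8.00% and 12%, and the last class of each list holds 6.45%, 0.666% and 0.644%.

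The 6 members in the optimal list were 3 genes of tRNA-Ala and 1 each of tRNA-Lys, tRNA-Asp and tRNA-Met. M01E5.t1 (tRNA-Lys, chromosome I, 13297673 to 13297745) had the strongest region of all members, with a signal value of 82.2 at rank 44 in the pooled list. Its value was 37.9 at rank 91 in replicate 1 and 41.5 at rank 44 in replicate 2. Its summit lay inside the gene in all 3 lists, but sls-2.9, a gene of the spliced leader RNA SL2, lay 132 bp away, and the part of this neighbour in the region was not tested. Y54G2A.t3 (tRNA-Asp, chromosome IV, 2805627 to 2805698) had 70.6 at rank 61 in the pooled list, 33.1 at rank 193 in replicate 1 and 28.5 at rank 194 in replicate 2. All 3 of its summits lay 12 or 13 bp past the end of the gene. Y38E10A.t1 (tRNA-Ala), whose sequence stands first above, had 68.1 at rank 73, 39.7 at rank 76 and 34.4 at rank 78. Its strongest summit lay 214 bp upstream in the pooled list and 210 bp upstream in replicate 1, whereas in replicate 2 it lay 23 bp into the gene. K06A4.t1 (tRNA-Ala) had 65.1 at rank 83, 22.9 at rank 1900 and 35.5 at rank 73. T15B12.t1 (tRNA-Met, chromosome III, 5294979 to 5295050) had 64.6 at rank 89, 36.5 at rank 112 and 25.8 at rank 372. F44A2.t1 (tRNA-Ala) had 63.9 at rank 93, 39.2 at rank 79 and 21.7 at rank 1168. K06A4.t1 and F44A2.t1 thus ranked high in opposite replicates, and their pooled signal values differed little. All 6 genes stood over 1000 bp from the next tRNA gene. Protein-coding genes started close to F44A2.t1, at 38 bp, and to Y54G2A.t3, at 159 bp. The other 4 members lay over 500 bp from any such start, but Y38E10A.t1 only just, at 504 bp. The summit of F44A2.t1 lay 63 bp upstream in the pooled list and 21 bp upstream in replicate 1. In replicate 2 it lay 54 bp into the gene. The part of the protein-coding neighbours in the regions of F44A2.t1, Y54G2A.t3 and Y38E10A.t1 was not tested.

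Many members had a summit in 1 replicate alone. Of the 194 genes with a summit in either replicate, 88 had one in both, 61 in replicate 1 alone and 45 in replicate 2 alone. The 88 were 59.1% of the replicate 1 genes and 66.2% of the replicate 2 genes. Among autosomal windows the same shares were 20.8% of those with replicate 1 and 29.0% of those with replicate 2, and both lists share their control. Of the 64 genes with a pooled summit, 56 had one in both replicates, 3 in replicate 1 alone, 4 in replicate 2 alone and 1 in neither, while 32 genes had one in both but none in the pooled list. With 100 bp in place of 250 bp, 57 genes had a summit in both, and no share of windows is given at that distance. Among the genes with both, 2 ranked within the first 100 of both replicates and 6 within the first 100 of exactly 1. The first 500 held 11 in both and 22 in exactly 1, the first 1000 held 16 and 31, and the first 5000 held 44 and 36. These ranks are from lists of different lengths. Where both replicates had a summit, the strongest summits lay a median of 65 bp apart, 57 of 88 were within 100 bp and the largest separation was 304 bp. The signal values of the replicates had a Spearman rho of 0.343 across these 88 genes. The genes are not independent replicates, since they form 81 distinct pairs of regions.

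**Figure D4:**
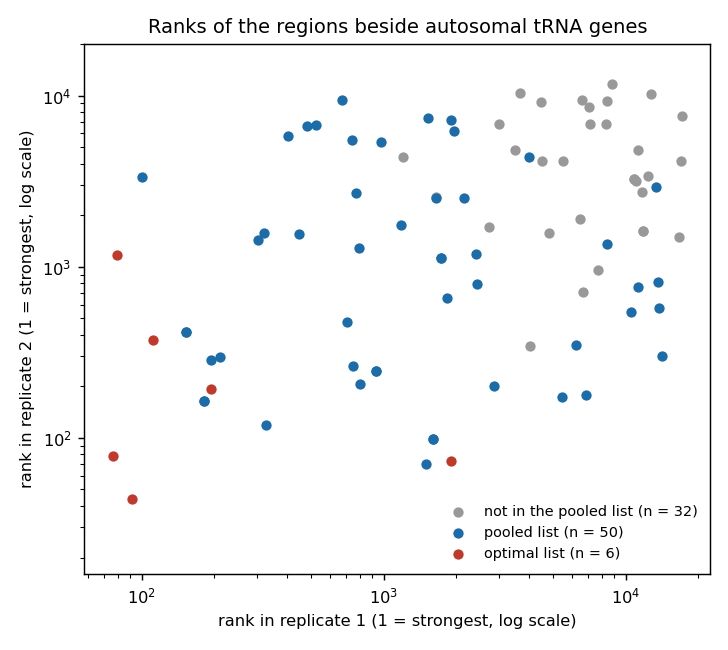
Rank of the strongest region within 250 bp in replicate 1 (x axis) and replicate 2 (y axis), both on log scales with 1 as the strongest, for the 88 autosomal tRNA genes with a summit in both; genes that share their regions overlie each other. The 6 genes of the optimal list reach ranks of up to 1900 in replicate 1 and 1168 in replicate 2, 50 further genes of the pooled list spread over both axes, and the 32 genes with no pooled summit lie at rank 1203 or beyond in replicate 1.

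The next strongest members after those 6 came from several isotypes. ZC455.t1 (tRNA-Ser, chromosome V, 12780386 to 12780467) had signal values of 61.2, 33.1 and 27.0 in the pooled list, replicate 1 and replicate 2, at ranks 111, 194 and 286. Its 3 summits fell 7 to 20 bp upstream of the gene. ZK994.t2 (tRNA-Lys, chromosome V, 8499564 to 8499636) lay within pxn-1, which encodes a peroxidasin, and had 60.7, 30.4 and 30.9 at ranks 114, 328 and 119. F52C9.t1 (tRNA-Thr, chromosome III, 5305905 to 5305976) had 59.1, 32.7 and 26.9 at ranks 125, 211 and 298. These 3 genes ranked within the first 500 of both replicates. C15C6.t1 (tRNA-Arg, chromosome I, 12198603 to 12198675) had 53.9, 26.4 and 28.2 at ranks 201, 801 and 207. Y43D4A.t1 (tRNA-Gly, chromosome IV, 16775182 to 16775253) had 55.3, 23.9 and 36.1 at ranks 177, 1502 and 70. Y49E10.t1 (tRNA-Gln, chromosome III, 12399909 to 12399980) lay within tat-1, which encodes an aminophospholipid translocase, and had 53.4, 37.3 and 17.8 at ranks 208, 100 and 3355. Its summits lay 72, 156 and 242 bp upstream of the gene, and the replicate 2 region did not overlap the gene. The last 2 genes ranked high in opposite replicates.

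Several of the strong regions lay beside 2 genes at a time, and the lists cannot assign them to either. Y22D7AL.t3 (tRNA-Met) and Y22D7AL.t4 (tRNA-Glu) on chromosome III, 49 bp apart, shared a region of 59.8 at rank 121 in the pooled list. Both replicates had it near that rank, 182 in replicate 1 with 33.4 and 164 in replicate 2 with 29.3, and in the pooled list and replicate 2 its summit fell inside Y22D7AL.t4. T23F1.t1 (tRNA-Lys) and T23F1.t2 (tRNA-Pro) on chromosome V, 67 bp apart, shared one of 55.2 at rank 180, with 34.5 at rank 153 and 25.4 at rank 413 in the replicates. Its summit fell inside T23F1.t1 in the pooled list and in replicate 1. F49C5.t4 (tRNA-Lys) and F49C5.t3 (tRNA-Leu) on chromosome II, 170 bp apart within nimk-1, shared one of 57.1 at rank 153, with 23.6 at rank 1598 and 32.2 at rank 99. There the summits fell between the genes in all 3 lists. W10G11.t1 (tRNA-Lys) and W10G11.t2 (tRNA-Thr) on chromosome II, 83 bp apart, shared one of 54.2 at rank 200, with 25.8 at rank 927 and 27.6 at rank 245. The pooled summit fell inside W10G11.t1.

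In many families of identical genes some copies had a summit and others had none. Of the 5 autosomal genes with the letters of Y38E10A.t1, of 8 in all nuclear chromosomes, Y38E10A.t1 alone had a pooled summit. Its strongest summit lay outside the shared letters in the pooled list, 214 bp upstream, and in replicate 1, 210 bp upstream. In replicate 2 it lay 23 bp into the gene. B0491.t2 had weak regions of 16.8 at rank 8372 in replicate 1 and 14.0 at rank 9284 in replicate 2. Y105C5A.t2 had 16.3 at rank 9234 in replicate 1 and none in replicate 2, and B0491.t1 and Y37A1B.t1 had none in either. Across the autosomes 242 genes fell into 43 families of 2 or more identical copies. A pooled summit lay beside some copies of 27 families, beside no copy of 16 and beside every copy of 0. For summits in both replicates the counts were 30, 13 and 0. Taken alone, replicate 1 gave 33, 7 and 3 families, and replicate 2 gave 32, 9 and 2. The shares of all members were 19% in the pooled list, 26.2% in both replicates, 44.3% in replicate 1 and 39.6% in replicate 2. Whether the family counts depart from what such shares alone would give was not tested. The largest family, tRNA-Gly, had 18 autosomal copies, 4 with a pooled summit and 5 with one in both replicates. A tRNA-Lys family of 15 autosomal copies had 2 and 5, and tRNA-Pro and tRNA-Asp families of 11 copies each had 4 and 2, and 2 and 3. The share with a pooled summit was 14% of the 86 genes with a sequence of their own (7.42% to 23.1%), 13.7% of the 51 genes with 2 to 5 nuclear copies (5.70% to 26.3%) and 22.6% of the 199 genes with more (17.0% to 29.1%).

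How the reads of identical copies were placed is not given in the sources used here. Words of 31 bases that occur once in the genome made up a median of 0% of the gene but 89.7% of the gene with 250 bp on either side. Most words of the flanks thus occur nowhere else, whereas those of most gene bodies do. Genes with a pooled summit had 72.5% to 97.6% of such words in that window. Under 50% were found in 6 windows, and all 6 genes had no summit in either replicate. The median share of such words in the window was 90.1% for genes with a pooled summit and 89.7% for those without.

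tRNA genes of nearly every isotype were among those with summits. All 20 isotypes with over 1 gene had at least 1 gene with a pooled summit and 1 with summits in both replicates. In the pooled list the shares ran from 9.09% for tRNA-His and tRNA-Tyr (1 of 11 genes each) to 33.3% for tRNA-Met (4 of 12) and tRNA-Cys (2 of 6). tRNA-Ala had 6 of 21 (28.6%, 11.3% to 52.2%), tRNA-Lys 6 of 28 (21.4%, 8.30% to 41.0%) and tRNA-Gly, the most numerous, 5 of 35 (14.3%, 4.81% to 30.3%). The 95% intervals of all 20 isotypes contained the 19% of all members in the pooled list and the 26.2% for both replicates. In replicate 1, 19 of 20 intervals contained the 44.3% of all members. The exception was tRNA-Gly, with 9 of 35 genes (25.7%, 12.5% to 43.3%), but in replicate 2 it had 14 of 35 (40%, 23.9% to 57.9%) against 39.6% of all members. With 6 to 35 genes each, the intervals are wide. The only autosomal tRNA-Sec gene, for selenocysteine, had a region in replicate 1 alone, with a signal value of 21.4 at rank 2694.

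**Figure D5:**
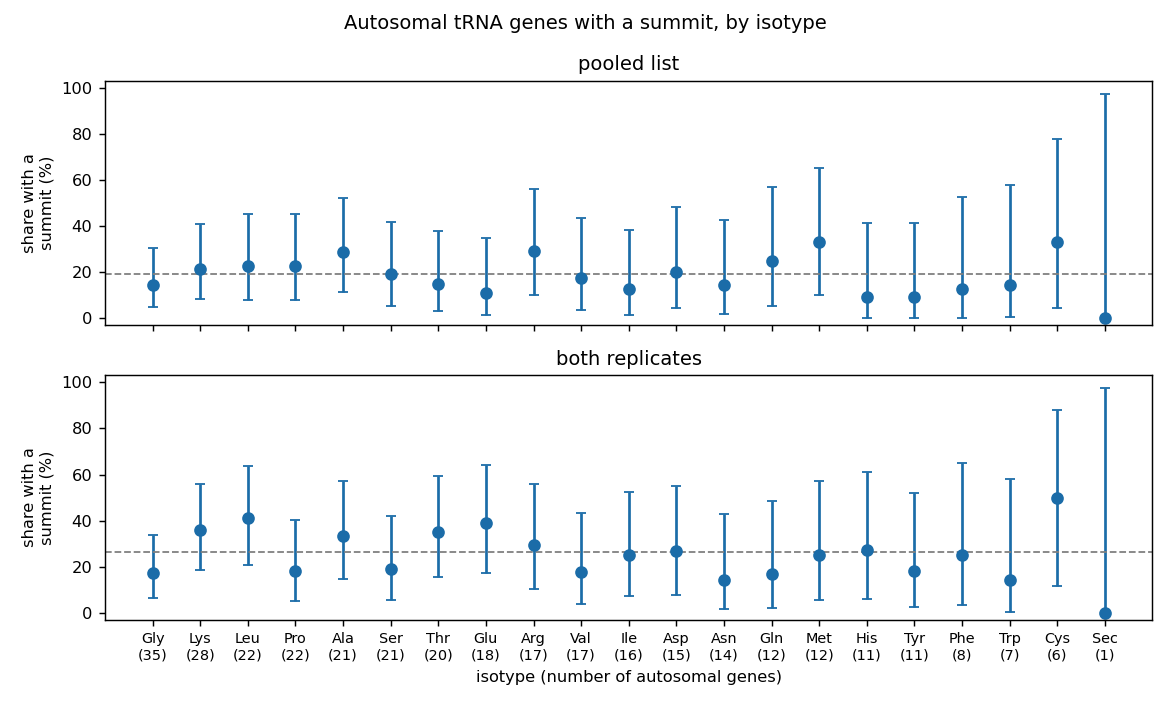
Share of autosomal tRNA genes with a summit within 250 bp (%, y axis) by isotype (x axis, number of genes in brackets), in the pooled list and in both replicates; points are shares, error bars exact 95% intervals and dashed lines the share of all 336 genes, 19% and 26.2%. The intervals of all 20 isotypes with over 1 gene cross the lines.

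The autosomes were similar in the pooled list. The share of genes with a pooled summit was 16.7% on chromosome I (11 of 66), 19.3% on II (11 of 57), 18.8% on III (12 of 64), 21.1% on IV (15 of 71) and 19.2% on V (15 of 78). Windows with a pooled summit made up 0.455% to 0.595% of each autosome. For summits in both replicates the shares ran from 18.2% on I (9.76% to 29.6%) to 31.6% on II (19.9% to 45.2%). In replicate 1 chromosome I had 20 of 66 genes (30.3%, 19.6% to 42.9%), an interval below the 44.3% of all members, whereas in replicate 2 it had 36.4% (24.9% to 49.1%). Its windows had the lowest share in replicate 1 among the autosomes, 7.86% against 7.89% to 9.35% elsewhere. The 7.89% was that of chromosome IV, where 42.3% of genes had a summit in replicate 1. Genes in the arms and in the centre of the chromosomes, taken as the outer and middle parts of 3 equal lengths, had shares of 19.5% (44 of 226) and 18.2% (20 of 110) in the pooled list.

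Clustered genes, with another nuclear tRNA gene within 1000 bp, had a pooled summit more often than isolated ones, but the intervals overlapped. The counts were 26 of 101 clustered genes (25.7%, 17.6% to 35.4%) and 38 of 235 isolated genes (16.2%, 11.7% to 21.5%). For summits in both replicates the shares were 29.7% and 24.7%. Genes within 250 bp of the next had the highest pooled share, 16 of 50 (32.0%, 19.5% to 46.7%), and there a region beside one gene can lie beside its neighbour too. With each group of genes counted as a unit, 15 of 46 groups of 2 or more genes had a pooled summit (32.6%, 19.5% to 48.0%). A group covers more sequence than a gene. In the optimal list the order was the other way, since all 6 members were isolated (2.55% of 235, 0.943% to 5.47%). There 0 of 101 clustered genes had a summit, which allows up to 3.59%, so these intervals overlapped too.

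Genes between protein-coding genes had a pooled summit in 34 of 141 cases (24.1%, 17.3% to 32.0%) and genes within a protein-coding gene in 30 of 195 (15.4%, 10.6% to 21.2%). The shares in both replicates were 31.2% and 22.6%, and neither pair of intervals was apart. Within protein-coding genes, members on the strand of the host had 17 of 116 (14.7%) and those on the other strand 13 of 79 (16.5%). Members within 500 bp of a protein-coding gene's start had 18 of 75 (24.0%, 14.9% to 35.3%) and the others 46 of 261 (17.6%, 13.2% to 22.8%). Of the 17 genes with an intron 4 had a pooled summit (23.5%, 6.81% to 49.9%), against 18.8% of those without.

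Few pooled summits lay near the limit of 250 bp, and with 500 bp the count of genes went from 64 to 65. The replicates had more summits beyond it, and with 500 bp the counts went from 149 to 170 in replicate 1, from 133 to 146 in replicate 2 and from 88 to 102 in both. In that list the 3 members nearest to the limit on the inside were F08G5.t3 (tRNA-Gln, chromosome IV) at 228 bp with a pooled signal value of 42.1, Y38E10A.t1 at 214 bp with 68.1 and F42A10.t1 (tRNA-Ser, chromosome III) at 212 bp with 41.8. The summit beside F08G5.t3 lay 8 bp from its neighbour F08G5.t2. The nearest on the outside were T05A8.t1 (tRNA-Leu, chromosome II) at 399 bp with 43.4, F08G5.t2 with a second region at 591 bp of 40.6, and F15D3.t1 (tRNA-Lys, chromosome I) at 659 bp with 43.0.

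tRNA genes on X had a summit more often than those on the autosomes, as did windows of X. A pooled summit lay beside 80 of 276 X genes (29.0%, 23.7% to 34.7%) and a summit of both replicates beside 106 (38.4%, 32.6% to 44.4%). Of 30977 windows on X, 1.49% held a pooled summit and 3.71% had both replicates, against 0.513% and 1.77% on the autosomes. Relative to windows of their own chromosomes, the pooled share of genes was 19.4 times as high on X and 37.1 times on the autosomes, and the share with both replicates 10.3 and 14.8 times. In the optimal list, with a summit beside 17 X genes (6.16%) and in 0.11% of X windows, the ratios were 56.1 on X and 54.8 on the autosomes. The highest signal value beside an X gene was 117, above the 82.2 of the autosomes. Identical copies were common between them, as 223 of the 336 autosomal genes had one on X. The differences between X and the autosomes were not tested.

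Annotated tRNA pseudogenes on the autosomes had far fewer summits in the pooled list and in both replicates, but not clearly so in the optimal list. A pooled summit lay beside 5 of 180 (2.78%, 0.908% to 6.36%), an interval below that of the genes, and a summit of both replicates beside 7 (3.89%, 1.58% to 7.85%). The 5 were named after their values were seen. T08B2.t1, within the phenylalanyl-tRNA synthetase gene fars-1 on chromosome I, overlapped the snoRNA gene T08B2.13 and had 70.4 at rank 62 in the pooled list, 40.1 at rank 72 in replicate 1 and 30.6 at rank 123 in replicate 2. D1046.t1, within cfim-2 on chromosome IV, overlapped the snoRNA gene D1046.6 and had 55.2, 28.2 and 27.4 at ranks 178, 510 and 254. The part of the snoRNA genes in these 2 regions was not tested. C52E12.t1, the pseudogene printed beside the tRNA-Ala genes, had 62.9, 24.4 and 34.3 at ranks 101, 1306 and 80. T08B2.t1 and C52E12.t1 were in the optimal list. They were 1.11% of the pseudogenes (0.135% to 3.96%), an interval that overlaps that of the tRNA genes in this list. H06I04.t1 and Y53G8B.t8 on chromosome III had weaker regions of 41.7 and 42.2 in the pooled list. With 250 bp on either side, 26 of the 180 pseudogenes had under 50% of 31-base words that occur once in the genome, against 6 of the 336 genes. All 26 had no summit in either replicate, and the part of this in the lower share of pseudogenes was not tested. Other short RNA genes on the autosomes differed as well. Pooled summits lay beside 49 of 313 snoRNA genes (15.7%, 11.8% to 20.2%) and 16 of 126 snRNA genes (12.7%, 7.44% to 19.8%), with intervals that overlap that of tRNA genes, but beside 2.67% of miRNA genes and 0.132% of 15201 piRNA genes. In the optimal list snoRNA genes had 17 of 313 (5.43%, 3.20% to 8.55%) and tRNA genes 6 of 336 (1.79%, 0.658% to 3.85%).

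The core of the B box was present in nearly all members, with or without a summit, so it could not separate them, and the A box was not searched. GTTCNANNC on the gene's own strand was present in 319 of 336 genes (94.9%), at a median start of position 53. It was present in 95.3% of the genes with a pooled summit and 94.9% of those without, and in 95.5% of those with both replicates and 92.3% of those with neither. Of the pseudogenes 82.2% held it, and so did 1.21% of autosomal windows of 72 bp on the plus strand, or 2.40% on either strand. TTTT within 25 bp after the gene was present in 98.5% of genes, in 100% of those with a pooled summit and in 31.5% of autosomal windows of 25 bp. The pooled summit lay at a median of -21 bp from the start of the B box core (quartiles -68 and 28 bp, 61 genes), where negative values are upstream. Summits were taken within 250 bp on either side of the gene. An even scatter would thus also put this median near the middle of the gene, upstream of the core. It therefore does not place summits relative to the B box. These matches describe letters and do not identify bound sites.

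Some members carry genetic names, and these 6 genes were chosen after the values were seen. Among them sup-5, sup-24 and sup-29, tRNA-Trp genes named for suppressor alleles that read amber stop codons, had a single weak region, of 15.2 at rank 11908 in replicate 1 beside sup-5. The tRNA-Trp gene rtw-6 and the tRNA-Glu gene rte-2 had none. The tRNA-Glu gene rte-4 on chromosome II had 46.0 at rank 476 in the pooled list, 28.8 at rank 447 in replicate 1 and 20.6 at rank 1558 in replicate 2.

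The counts for protein-coding genes of tRNA biology rest on few genes and are given beside those of all protein-coding genes. Within 250 bp of the 5′ end of 33 aminoacyl-tRNA synthetase genes, whose enzymes load tRNAs with amino acids, the pooled list had 0 summits, replicate 1 had 1 (3.03%) and replicate 2 had 3 (9.09%), with 0 genes in both. The region of fars-3 in replicate 2 was the strongest, with 22.6 at rank 887. Of 12 genes for RNA polymerase III, its factors and tRNA maturation, 0 had a pooled summit and 1 (8.33%) had one in both replicates. This was rpac-19, which encodes a subunit shared by RNA polymerases I and III, with 17.0 at rank 7907 in replicate 1 and 19.3 at rank 2254 in replicate 2. Among all 19971 nuclear protein-coding genes, 162 (0.811%) had a pooled summit, 9.61% had one in replicate 1, 7.14% in replicate 2 and 2.24% in both.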

How the data were processed

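ChIP-seq of tagged SDZ-38 was read from region lists in narrowPeak layout that the authors deposited for build ce11. Per the deposited file notes, each replicate's list of peaks and background was made from its alignment and 1 control alignment, the pooled list from both alignments and that control, and the optimal list from these 3 lists by thresholding on the irreproducible discovery rate (IDR), which weighs how ranks repeat between replicates. The signal value in column 7 is a score that the authors deposited with no stated scale. Which aligner and peak caller were used is not given in the sources used here. Lists of build ce10 were not used, because the annotation is of WBcel235 (ce11), in which 0 region ends lay beyond a chromosome. No alignment was analysed here, so the depth is unknown.

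Summits were matched to RefSeq WBcel235 genes with Python 3.11.15, NumPy 2.4.6 and SciPy 1.17.1. A gene counted as having a summit when 1 lay within 250 bp of either end or inside it, and its strongest such region gave its signal value and rank. Shares have exact Clopper-Pearson 95% intervals. No test was made, since there is 1 group of 2 replicates, genes are not replicates and neighbours share regions. The background is all autosomal windows of 572 bp. Matching was tested on simulated summits placed at known distances. Sequences, motifs and unique words of 31 bases were read from the same reference.

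The members and lists were chosen with earlier results of these data known. Genes named are all with an optimal summit, the 20 strongest in the pooled list, the 5 strongest in each replicate, the strongest of each autosome and the 3 nearest to 250 bp on either side; others are said to have been chosen after their values were seen, or come from families or pathway lists. Of 13 genes listed for RNA polymerase III and tRNA maturation, 12 matched the annotation. Alternatives were distances of 100 and 500 bp, region overlap, stronger parts of each list, 1 replicate alone, other cluster distances, groups counted as units, nearest summits and, chosen after seeing the data, genes over 500 bp from any snoRNA, snRNA, miRNA or rRNA gene.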

Additional observations from a re-analysis of the deposited data

How the results depend on the processing

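The count of autosomal tRNA genes with a pooled summit was 64, and it was 54 to 65 with summits within 100 or 500 bp, region overlap, the 1000 strongest nuclear regions or, chosen after seeing the data, genes away from other short RNA genes. It was 38 in the stronger part of the list, above its median signal. With the 1000 strongest nuclear regions of each replicate the counts were 35 in replicate 1, 42 in replicate 2 and 16 in both. The 88 genes with both replicates became 57 at 100 bp and 56 in the stronger part of each list. With replicate 2 used alone 133 genes had a summit, and with replicate 1 used alone 149 had one. These alternatives use fewer regions, a shorter reach or fewer lists by construction. No share of windows is given for other distances or stronger parts of a list, so the excess over windows is not known there. The optimal count was 5 or 6, and at 100 bp Y38E10A.t1 was the gene no longer counted. Isolated genes kept a lower pooled share (16.2% to 17.2%) than clustered genes (22.6% to 27.4%), and autosomal genes (16.4% to 19.3%) than X genes (25% to 33.3%). The Spearman rho was 0.284 to 0.343, and the median summit distance 10 to 13.5 bp. The unstated scale of the signal value, the unknown depth and the absence of an untagged library from what was analysed limit all of these values, and weak regions of the lenient lists include background. No paired analysis was possible because there is 1 group.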

Other observations

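The profile of summits was uneven farther from the genes, and the stretch described was chosen after the profile was seen. In the 10 bins of 100 bp that lie 600 to 1100 bp on either side of the 5′ end, each bin held 0 to 5 pooled summits, 8 to 14 in replicate 1 and 3 to 13 in replicate 2. The 6 bins between 300 and 600 bp held 0 to 1, 3 to 10 and 0 to 9. The ranges thus overlapped in all 3 lists. A summit was counted for every member near it, so the outer bins can hold summits that lie beside another tRNA gene. The next tRNA gene was 250 to 1000 bp away for 51 members, of which 10 had a pooled summit. Around the 180 pseudogenes the outer bins held 0 to 6 summits in each replicate, and the bins between 300 and 600 bp held 1 to 4 in replicate 1 and 1 to 5 in replicate 2. No test was made.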
